A study of Rattus norvegicus with 17 samples.

Results

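DNA replication and S phase genes were followed in the livers of rats dosed with isopropylated phenol phosphate (IPP), a mixture of triaryl phosphate esters used as a flame retardant. The list held 39 genes: the 6 subunits of the MCM helicase, licensing and helicase activation factors, polymerase and primase subunits, the sliding clamp and its loader, nucleotide supply enzymes, S phase regulators and the recombination gene Mnd1. Each gene was read from its probe set with the highest mean signal among those that carry its symbol alone, which gave 36 of the 39 listed genes, out of 14217 genes measured on the array. Rrm2 was not analysed here because its probe sets carry a second symbol, and Cdc6 and Gins2 were not analysed here either.

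The animals were male Harlan Sprague-Dawley rats, all gavaged with corn oil once a day for 4 days, and liver was taken on day 5. The vehicle group (n = 5) received corn oil alone and the other groups (n = 3 each) corn oil with IPP at 76.5, 153, 305.5 or 611 mg/kg body weight, which equals 0.169, 0.338, 0.675 or 1.35 mmol/kg. The treatment protocol rounds 76.5 to 77 and 305.5 to 306 mg/kg, and the age of the rats is not given in the sources used here. RNA came from pieces of the left lobe of each rat, with 1 array per rat, so every value is from bulk tissue, in which a change in the number of cells of a type and a change in RNA per cell cannot be told apart.

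Cells license replication origins in G1 by loading the MCM helicase, with CDC6 and CDT1 as loaders, and fire them in S phase when CDC45 and the GINS complex join it. Primase and DNA polymerase alpha lay down the primers, the loader RFC places the clamp PCNA, polymerases delta and epsilon extend the strands, and FEN1 and LIG1 join the lagging strand pieces, while ribonucleotide reductase, thymidylate synthase, thymidine kinase and dUTPase supply deoxynucleotides. Many of these genes are targets of E2F transcription factors. Hepatocytes of the adult liver are mostly quiescent, and these genes are known to be induced when hepatocytes re-enter the cycle after tissue loss or a mitogen.

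Values are the deposited log2 signals, and differences between groups are on the same scale, with the SE that a single limma model of the 17 arrays gave. A gene was called when its p, adjusted by Benjamini-Hochberg over all 14217 genes, was under 0.05. Log2 signals under 6 are dim, near the array's background, and 9 members had a group mean under 6. The number of arrays limits the precision. Each p-value sets a difference against the spread between these rats, as estimated by the model over all its arrays. Hepatocyte markers were bright, with a mean log2 level over 8 of 8 measured markers between 13.8 and 14.2 in every rat, near the top of the range of the table. By limma 0 of the 8 were called at any dose. At 305.5 mg/kg, 2 of the 8 were higher at an unadjusted p under 0.05 (5.73% of all genes). Rats 2 and 3 of that dose had the list mean 0.24 and 0.27 above vehicle. Array medians ran from 6.29 to 6.40.

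Since many genes of this kind are known E2F targets, the members' promoters were read from RefSeq windows of build GRCr8, which reach from 250 bases before to 50 bases after a gene's start and were found for 33 of the 36 measured members. Mcm4, Ccne2 and E2f1 were the other 3. The letters searched on both strands were TTTCCCGC, TTTCGCGC, TTTGCCGC and TTTGGCGC for E2F, CCAAT for the CCAAT box, and TTCGAA and TTTGAA for the cell cycle homology region (CHR) known from mitotic genes. The 8 stretches printed here cover the 180 bases before the start of 5 genes that were called at 611 mg/kg (Rrm1, Tk1, Prim1, Pola1 and Mnd1) and of 3 MCM genes that were not called, in the direction of transcription. Capitals mark the matches, and ATTGG is the CCAAT box on the other strand.
Rrm1 (chr1:166235724-166235903, plus strand): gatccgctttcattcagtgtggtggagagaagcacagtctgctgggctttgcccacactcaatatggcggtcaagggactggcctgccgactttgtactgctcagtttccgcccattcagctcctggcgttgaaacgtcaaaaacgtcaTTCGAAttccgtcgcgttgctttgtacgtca
Tk1 (chr10:103544778-103544957, minus strand): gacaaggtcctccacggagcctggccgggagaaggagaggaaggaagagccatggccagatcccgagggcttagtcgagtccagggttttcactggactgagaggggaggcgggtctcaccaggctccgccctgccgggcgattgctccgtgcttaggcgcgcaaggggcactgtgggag
Prim1 (chr7:1031282-1031461, plus strand): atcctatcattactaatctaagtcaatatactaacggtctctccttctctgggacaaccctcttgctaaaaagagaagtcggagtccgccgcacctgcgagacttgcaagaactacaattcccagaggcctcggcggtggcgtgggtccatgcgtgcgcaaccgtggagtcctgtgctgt
Pola1 (chrX:62342356-62342535, minus strand): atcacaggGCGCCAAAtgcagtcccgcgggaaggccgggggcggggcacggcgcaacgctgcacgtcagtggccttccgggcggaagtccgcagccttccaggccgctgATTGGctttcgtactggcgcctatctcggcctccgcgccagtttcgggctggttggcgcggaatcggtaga
Mnd1 (chr2:171794096-171794275, minus strand): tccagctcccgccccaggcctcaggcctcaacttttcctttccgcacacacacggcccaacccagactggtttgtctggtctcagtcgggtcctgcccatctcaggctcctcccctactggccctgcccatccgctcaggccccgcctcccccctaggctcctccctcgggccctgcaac
Mcm2 (chr4:122918095-122918274, minus strand): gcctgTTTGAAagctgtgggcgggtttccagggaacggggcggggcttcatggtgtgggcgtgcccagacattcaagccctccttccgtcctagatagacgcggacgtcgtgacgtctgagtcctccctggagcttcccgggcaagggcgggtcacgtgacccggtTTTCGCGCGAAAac
Mcm6 (chr13:42404353-42404532, minus strand): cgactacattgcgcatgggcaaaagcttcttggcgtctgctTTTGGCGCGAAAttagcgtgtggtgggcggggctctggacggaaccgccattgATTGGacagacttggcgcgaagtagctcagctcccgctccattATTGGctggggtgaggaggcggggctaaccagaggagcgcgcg
Mcm7 (chr12:22163179-22163358, minus strand): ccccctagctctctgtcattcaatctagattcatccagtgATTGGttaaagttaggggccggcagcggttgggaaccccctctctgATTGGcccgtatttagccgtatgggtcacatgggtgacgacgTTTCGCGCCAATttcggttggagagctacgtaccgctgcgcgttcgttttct

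The E2F letters were present in the windows of 15 of 33 members (45.5%), against 3.74% of 11701 genes on the array and 2.14% of all 33465 windows. Members and array genes were counted once each, with a match in any of their windows, while the last share counts single windows. Wholly before the start, the E2F letters were present in 9 of 33 members (27.3%), against 3.03% of the array's genes and 1.73% of all windows. The CCAAT box was present in 16 of 33 (48.5%, against 38.6% of the array's genes and 37.5% of all windows), and the CHR in 7 of 33 (21.2%, against 15.0% and 19.7%). The median GC content was 60.0% for the members and 60.0% for the genes on the array. All 5 MCM genes with a window (Mcm2, Mcm3, Mcm5, Mcm6 and Mcm7) held the E2F letters, in Mcm2 as overlapping matches on opposite strands that begin 14 and 10 bases before the start. In Mcm7 the match 52 bases before the start overlaps a CCAAT box. Of the 6 members called at 611 mg/kg, only Pola1 held the E2F letters, 172 bases before its start. Rrm1 held a CHR 31 bases before its start. Tk1 and Mnd1 held none of the 3 motifs in their windows, and Prim1 none in the stretch printed. A match is a run of letters and does not show that a factor binds, and its absence says only that these letters are not in the window.

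**Figure D1:**
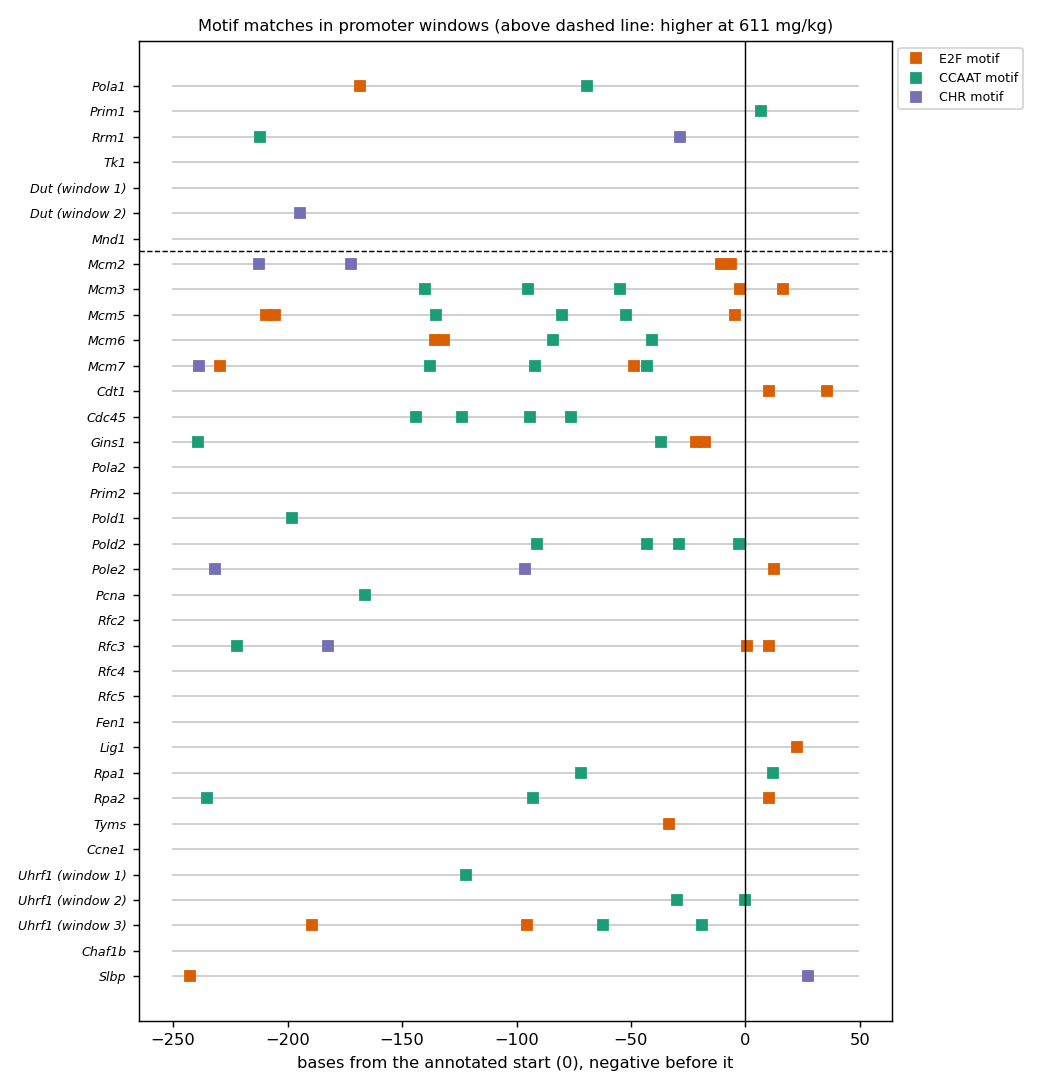
Motif letters in the 300-base RefSeq windows of the 33 measured members that have one, by distance in bases from the start site. Rows are windows, with over 1 window for 2 genes, and marks are E2F, CCAAT and CHR matches. The E2F letters are present in windows of 15 of the 33 members.

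At 611 mg/kg, 6 of the 36 members rose and 0 fell. They were the ribonucleotide reductase large subunit Rrm1, the thymidine salvage enzyme Tk1, the dUTPase Dut, the primase catalytic subunit Prim1, the polymerase alpha catalytic subunit Pola1, and Mnd1, which is known for its role in meiotic recombination with its partner HOP2. The 6 are 16.7% of the members, where 5.04% of all 14217 genes were called higher and 2.42% were called lower in this comparison. The list, Mnd1 included, was chosen with earlier results of these data known, so its shares are not a blind comparison with all genes. The rises ran from 0.41 to 1.65 on the log2 scale, or 1.33-fold to 3.14-fold. Without regard to calls, 30 of 36 differences were above 0 (49.4% of all genes), and the median difference was 0.25 over the members and 0.00 over all genes, whose quartiles were -0.13 and 0.15. In 11 members (30.6%) all 3 rats lay above every vehicle rat, which held for 11.5% of all genes, and in 0 members did they all lie below (7.13%). At an unadjusted p under 0.05, 17 members were higher (14.5% of all genes) and 0 lower (9.66%). These counts rest on single rats in part. With 1 rat left out at a time, 5 to 10 members were called higher, with 10 reached without 76.5 mg/kg rat 3. Over all genes the 716 called higher became 257 to 1033. The fall was to 257 without 611 mg/kg rat 2, 476 without 611 mg/kg rat 3, 432 without vehicle rat 5 and 473 without vehicle rat 1.

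**Figure D2:**
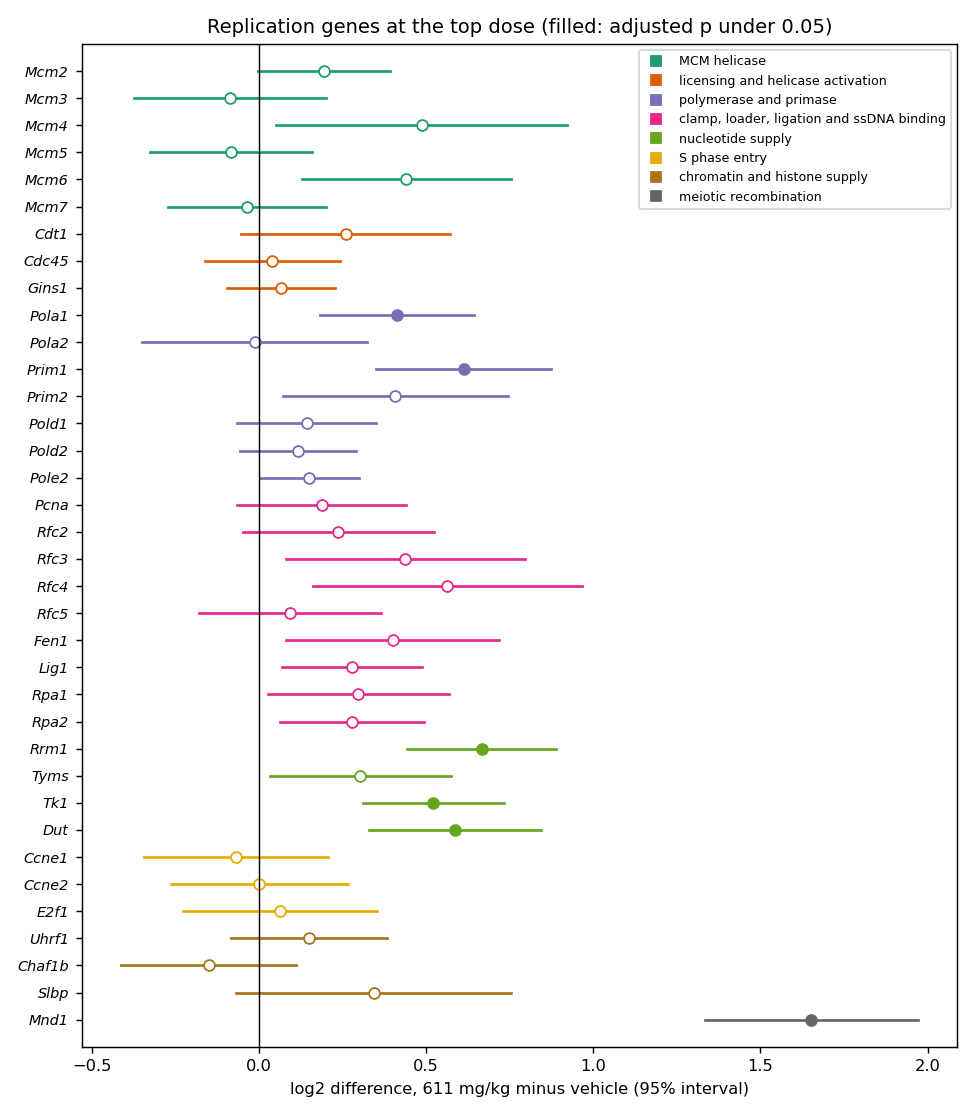
Log2 difference at 611 mg/kg minus vehicle for the 36 measured members, grouped by role. Points are limma estimates (n = 3 against n = 5), bars are 95% intervals and filled colour marks the 6 members called, with Mnd1 far to the right of the others at 1.65.

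Nucleotide supply held 3 of the 6 calls, from 4 members measured (5.04% of all genes were called higher). Rrm1, the large subunit of ribonucleotide reductase, was at 7.73, 7.79, 7.90, 7.52 and 7.60 in the vehicle rats and at 8.41, 8.44 and 8.28 at 611 mg/kg. At 76.5 mg/kg Rrm1 was at 7.71, 7.99 and 7.56, at 153 mg/kg at 7.88, 7.98 and 7.85 and at 305.5 mg/kg at 7.76, 7.57 and 7.67. The 611 mg/kg rats were the highest of all 17 and did not overlap with any other group. Rrm1 rose by 0.67 ± 0.11 (limma, Benjamini-Hochberg adjusted p = 0.00132), a 1.59-fold rise (95% interval 1.36 to 1.85). Tk1, which phosphorylates thymidine, was at 8.15, 8.31, 8.32, 8.04 and 8.04 in the vehicle rats and at 8.77, 8.73 and 8.58 at 611 mg/kg. The lower doses, in ascending order, had 8.05, 8.15 and 7.87, then 8.17, 7.99 and 7.91, and then 8.21, 8.10 and 8.25. Again the 611 mg/kg rats were the highest of all, and the rats of the lower doses spread over and below the vehicle range. Tk1 rose by 0.52 ± 0.10 (adjusted p = 0.00539). Its other probe sets gave 0.96 (adjusted p = 0.000479) and, for the dim one with a mean of 5.87, 0.19 (adjusted p = 0.229), in a fit over all 20826 probe sets with 1 symbol.

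Dut hydrolyses dUTP, which keeps uracil out of DNA and yields the precursor of dTMP. It was at 9.74, 9.98, 9.91, 9.57 and 9.80 in the vehicle rats and at 10.53, 10.30 and 10.32 at 611 mg/kg. The rats at 76.5 mg/kg were at 9.66, 10.13 and 9.70, those at 153 mg/kg at 9.83, 9.95 and 9.93 and those at 305.5 mg/kg at 10.11, 9.73 and 9.85. The 611 mg/kg rats were above all others, by the least margin over 76.5 mg/kg rat 2 at 10.13. Dut rose by 0.59 ± 0.12 (adjusted p = 0.00818), but its second probe set, which was dim with a mean of 5.85, gave 0.08 (adjusted p = 0.797 over all probe sets), and with the mean of both the call was lost (0.33, adjusted p = 0.109). Tyms, the thymidylate synthase, was dim, at 5.46 to 5.88 in the vehicle rats and 5.82 to 6.18 at 611 mg/kg, and its difference of 0.30 ± 0.13 did not pass (adjusted p = 0.16).

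Among polymerase and primase subunits, 2 of 7 rose at 611 mg/kg (5.04% of all genes were called higher), with a median difference of 0.15 over the 7. Prim1, the subunit that makes the RNA primer, was at 7.14, 7.34, 7.34, 7.41 and 7.33 in the vehicle rats and at 8.03, 7.997 and 7.75 at 611 mg/kg. At 76.5 mg/kg Prim1 was at 7.12, 7.80 and 7.57, at 153 mg/kg at 7.27, 7.43 and 7.501 and at 305.5 mg/kg at 7.34, 7.31 and 7.21. All 611 mg/kg rats were above every vehicle rat, while 76.5 mg/kg rat 2, at 7.80, lay above the lowest 611 mg/kg rat. Prim1 rose by 0.61 ± 0.12 (adjusted p = 0.00723), or 1.53-fold. Prim2, the regulatory subunit of primase, overlapped with vehicle (6.94 to 7.60 against 7.46 to 7.87), with a difference of 0.41 ± 0.16 (adjusted p = 0.129). Pola1, the catalytic subunit of the polymerase that works with primase, was at 6.02, 5.96, 5.91, 5.71 and 5.70 in the vehicle rats and at 6.09, 6.37 and 6.36 at 611 mg/kg. The lower doses, in ascending order, had 6.001, 6.10 and 6.34, then 5.77, 6.11 and 6.06, and then 5.94, 5.99 and 5.86. The groups did not overlap at 611 mg/kg, although the lowest 611 mg/kg rat was only slightly above the highest vehicle rat and 76.5 mg/kg rat 3 reached 6.34. Pola1 rose by 0.41 ± 0.11 (adjusted p = 0.0291), from a dim vehicle mean. That call was lost without vehicle rat 4 (adjusted p = 0.065), vehicle rat 5 (0.07), 611 mg/kg rat 2 (0.136) or 611 mg/kg rat 3 (0.1), and after median centring of the arrays (0.0519). Pola2, the accessory subunit of polymerase alpha, differed by -0.01 (95% interval -0.35 to 0.32). The polymerase delta subunits Pold1 (0.14) and Pold2 (0.12) and the polymerase epsilon subunit Pole2 (0.15) did not pass.

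**Figure D3:**
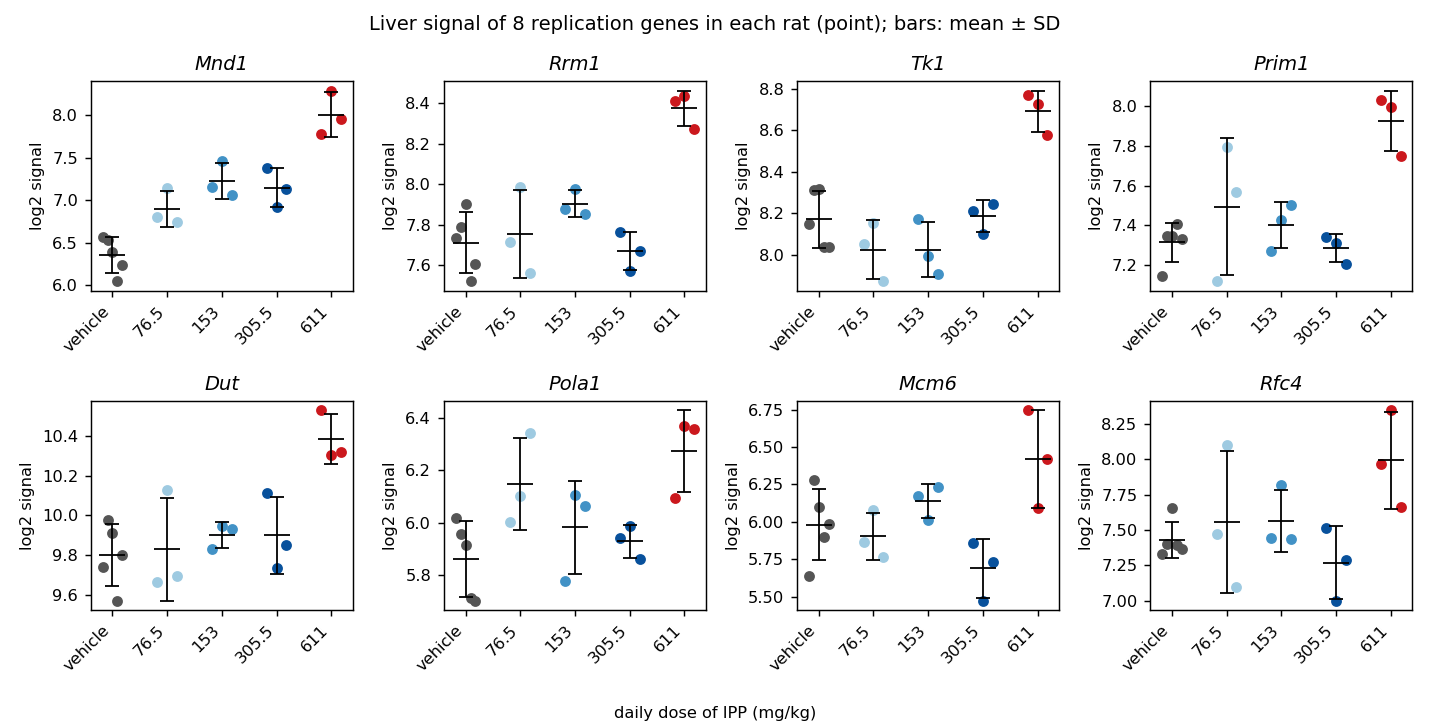
Log2 signal in each of the 17 rats, by daily dose in mg/kg, for the 8 members with the smallest p at 611 mg/kg (Mnd1, Rrm1, Tk1, Prim1, Dut, Pola1, Mcm6 and Rfc4). Points are rats, and the bars give the mean ± SD of each group (n = 5 for vehicle, n = 3 for each dose). The 611 mg/kg rats are above every vehicle rat in all panels except Mcm6.

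The replicative helicase gave 0 calls among its 6 subunits at 611 mg/kg, where 5.04% of all genes were called higher and 2.42% lower. The median difference was 0.08 and the range was from -0.09 to 0.49. Mcm6 and Mcm4, 2 of the 6, were higher at an unadjusted p under 0.05 (14.5% of all genes). The smallest p belonged to Mcm6, at 5.64, 6.28, 6.10, 5.90 and 5.98 in the vehicle rats and 6.75, 6.09 and 6.42 at 611 mg/kg. The rats at 76.5 mg/kg were at 5.86, 6.08 and 5.76, those at 153 mg/kg at 6.17, 6.01 and 6.23 and those at 305.5 mg/kg at 5.86, 5.47 and 5.73. The groups overlapped, since 611 mg/kg rat 2 was below vehicle rat 2, and the difference was 0.44 ± 0.15 (adjusted p = 0.0801). It passed without vehicle rat 2 (0.52, adjusted p = 0.0474) and without 611 mg/kg rat 2 (adjusted p = 0.0422). With 1 rat left out at a time, the Mcm6 difference ran from 0.28 to 0.60. Mcm6 was called in 4 of 28 alternative limma fits, over which its adjusted p ran from 0.0185 to 0.268. Mcm4 had the largest estimate, 0.49 ± 0.21 (adjusted p = 0.16), with 7.25 to 7.65 in the vehicle rats and 7.59 to 8.02 at 611 mg/kg. Its highest value of all, 8.45, was in 76.5 mg/kg rat 3. Mcm2 differed by 0.19 ± 0.09 (adjusted p = 0.215). For the other 3 the estimates were below 0 with intervals on both sides of it: -0.09 for Mcm3 (95% interval -0.37 to 0.20), -0.08 for Mcm5 (95% interval -0.32 to 0.16) and -0.04 for Mcm7 (95% interval -0.27 to 0.20). The 5 MCM genes with E2F letters in their windows are thus among the members that were not called.

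Licensing and helicase activation had 3 measured members of 5 listed. At 611 mg/kg, 0 of the 3 were called, where 5.04% of all genes were called higher and 2.42% lower. At an unadjusted p under 0.05 it was also 0 of the 3 (14.5% of all genes were higher and 9.66% lower). The MCM loader Cdt1 was dim and differed by 0.26 ± 0.15 (adjusted p = 0.294), and the GINS subunit Gins1 by 0.07 ± 0.08. Cdc45, part of the active helicase, differed by 0.04 ± 0.10, and its 4 probe sets ran from -0.05 to 0.13.

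The clamp, its loader, and the genes of ligation and single-strand binding gave 0 calls among 9 (5.04% of all genes were called higher). All 9 estimates were above 0 (49.4% of all genes were), from 0.09 to 0.56 with a median of 0.28, and 6 of the 9 were higher at an unadjusted p under 0.05 (14.5% of all genes). In 5 of the 9 (Rfc3, Rfc4, Fen1, Lig1 and Rpa1) every 611 mg/kg rat lay above every vehicle rat (11.5% of all genes). Rfc4, a subunit of the clamp loader, was at 7.33, 7.40, 7.65, 7.40 and 7.37 in the vehicle rats and at 7.97, 8.35 and 7.66 at 611 mg/kg. At 76.5 mg/kg Rfc4 was at 7.47, 8.10 and 7.10, at 153 mg/kg at 7.44, 7.82 and 7.43 and at 305.5 mg/kg at 7.52, 7.001 and 7.29. The gap between the groups was narrow, between vehicle rat 3 at 7.65 and 611 mg/kg rat 3 at 7.66, and 76.5 mg/kg rat 2 reached 8.10. The Rfc4 difference was 0.56 ± 0.19 (adjusted p = 0.0818), and it passed without 76.5 mg/kg rat 2 (adjusted p = 0.0317) or rat 3 (adjusted p = 0.0375). With 1 rat left out at a time, the Rfc4 difference ran from 0.39 to 0.73. Rfc4 was called in 3 of 29 alternative limma fits, over which its adjusted p ran from 0.0317 to 0.381. The other loader subunits differed by 0.24 (Rfc2), 0.44 (Rfc3) and 0.09 (Rfc5). A second probe set of Rfc5 gave 0.45 (adjusted p = 0.0737 over all probe sets). Pcna, the clamp and a common marker of S phase, was at 9.02 to 9.47 in the vehicle rats and 9.14 to 9.62 at 611 mg/kg, with a difference of 0.19 ± 0.12 (95% interval -0.06 to 0.44, adjusted p = 0.349). The flap nuclease Fen1 differed by 0.40 ± 0.15 (adjusted p = 0.118). For the ligase Lig1 the difference was 0.28 ± 0.10 (adjusted p = 0.0992), while its dim second probe set had -0.20. The single-strand binding subunits Rpa1 and Rpa2 differed by 0.30 and 0.28.

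The S phase entry genes and the genes of chromatin and histone supply gave 0 calls among 3 and 0 among 3 at 611 mg/kg. Of all genes, 5.04% were called higher and 2.42% lower. At an unadjusted p under 0.05 both sets also gave 0 (14.5% of all genes were higher and 9.66% lower). Cyclin E1 (Ccne1), which drives the kinase CDK2 at the start of S phase, differed by -0.07 (95% interval -0.35 to 0.21). For cyclin E2 (Ccne2), which was dim, the value was 0.00 (95% interval -0.26 to 0.26), and a second probe set had 0.38. The transcription factor gene E2f1 differed by 0.06 (95% interval -0.23 to 0.35). Uhrf1, which helps to copy DNA methylation after replication, was dim and differed by 0.15. Chaf1b, of the histone chaperone CAF-1, differed by -0.15. Slbp, which binds the stem-loop of histone mRNAs, differed by 0.34 ± 0.19 (adjusted p = 0.292), and its 3 probe sets gave 0.34, 0.11 and -0.17.

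Mnd1 had the largest difference of all members and was the only one called at a dose under 611 mg/kg. It was at 6.57, 6.54, 6.39, 6.05 and 6.25 in the vehicle rats and at 7.78, 8.29 and 7.96 at 611 mg/kg. The lower doses, in ascending order, had 6.81, 7.14 and 6.75, then 7.15, 7.46 and 7.06, and then 7.38, 6.93 and 7.13. Every dosed rat, at every dose, lay above every vehicle rat, and the 611 mg/kg rats were the highest. Mnd1 rose by 1.65 ± 0.15 at 611 mg/kg (adjusted p = 9.01e-06), a 3.14-fold rise (95% interval 2.52 to 3.92). It also rose by 0.87 ± 0.15 at 153 mg/kg (adjusted p = 0.009) and by 0.79 ± 0.15 at 305.5 mg/kg (adjusted p = 0.00873). At 76.5 mg/kg the difference of 0.54 ± 0.15 did not pass (adjusted p = 0.187). The call at 153 mg/kg was lost without 153 mg/kg rat 2 (0.75, adjusted p = 0.101) and that at 305.5 mg/kg without 305.5 mg/kg rat 1 (0.67, adjusted p = 0.0752).

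The lower doses gave few other differences among the members. All doses were compared with the same 5 vehicle rats, so the errors of these comparisons are shared. At 76.5 mg/kg, 0 of 36 were called higher (0.141% of all genes) and 0 lower (0.127%), by limma. At an unadjusted p under 0.05, 6 were higher (5.56% of all genes) and 1 was lower (5.18%), 19 of 36 estimates were above 0 (52.9%), and the median difference was 0.03. With array weights, limma called Pold2, Rpa2 and Mnd1 at this dose, the 3 members (8.33%) whose rats all lay above every vehicle rat (3.14% of all genes), while in 0 members they all lay below (3.16%). At 153 mg/kg, Mnd1 alone was called higher (0.408% of all genes) and 0 lower (0.338%), and the median was 0.11 against 0.01 over all genes. All 3 rats lay above every vehicle rat in Rfc5, Rpa1 and Mnd1 (8.3% of all genes) and below in Mcm5 (4.42%). At an unadjusted p under 0.05, 3 members were higher (7.44% of all genes) and 0 lower (4.43%), and 25 of 36 estimates were above 0 (52.1%). At 305.5 mg/kg, Mnd1 alone was called higher (0.753% of all genes) and 0 lower (1.47%), and the median was -0.01. Here 17 of 36 estimates were above 0 (51.8% of all genes), and at an unadjusted p under 0.05 there was 1 member higher (5.73%) and 0 lower (7.77%). All 3 rats lay above every vehicle rat in Mnd1 (6.37% of all genes) and below in Gins1 (7.34%).

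Between 305.5 and 611 mg/kg, which do not share rats, Rrm1 and Mnd1 rose and 0 members fell, where 0.288% of all genes were called higher and 0.0352% lower. At an unadjusted p under 0.05, 16 members were higher (9.3% of all genes) and 0 lower (6.75%). The median difference was 0.22 over the members and 0.01 over all genes, and 31 of 36 estimates were above 0 (52.5% of all genes). Rrm1 rose by 0.71 ± 0.12 (adjusted p = 0.0145) and Mnd1 by 0.86 ± 0.17 (adjusted p = 0.034). Both calls were lost without 305.5 mg/kg rat 2 (adjusted p = 0.13 and 0.245) or rat 3 (0.0713 and 0.171), and that of Mnd1 also without vehicle rat 3 (0.0552), vehicle rat 5 (0.0531), 611 mg/kg rat 2 (0.169) or 611 mg/kg rat 3 (0.077). Without 76.5 mg/kg rat 3, which enters this comparison only through the shared spread, 4 members were called (Prim1, Rrm1, Tk1 and Mnd1).

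A slope over the rank of the dose group, from 0 for vehicle to 4 for 611 mg/kg, was called for Mnd1, Dut and Rrm1, where 3.96% of all genes were called with a rising slope and 2.78% with a falling one. At an unadjusted p under 0.05, 11 members had a rising slope (12.5% of all genes) and 0 a falling one (8.81%), and 30 of 36 estimates were above 0 (49.3%). The log2 rise per step was 0.36 ± 0.04 for Mnd1 (adjusted p = 3.57e-05), 0.12 ± 0.03 for Dut (adjusted p = 0.0295) and 0.12 ± 0.04 for Rrm1 (adjusted p = 0.0496). Without the 611 mg/kg group only Mnd1 was called, and the slopes of Dut and Rrm1 were 0.04 (adjusted p = 0.741) and 0.01 (adjusted p = 0.949). Leaving out vehicle rat 1 or 4, or any single 611 mg/kg rat, also left Mnd1 as the only member called. The slope of Rrm1 passed only with all rats or without vehicle rat 3, 76.5 mg/kg rat 2 or any 1 of the 305.5 mg/kg rats, and the omission of any other rat gave an adjusted p from 0.0527 to 0.157.

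**Figure D4:**
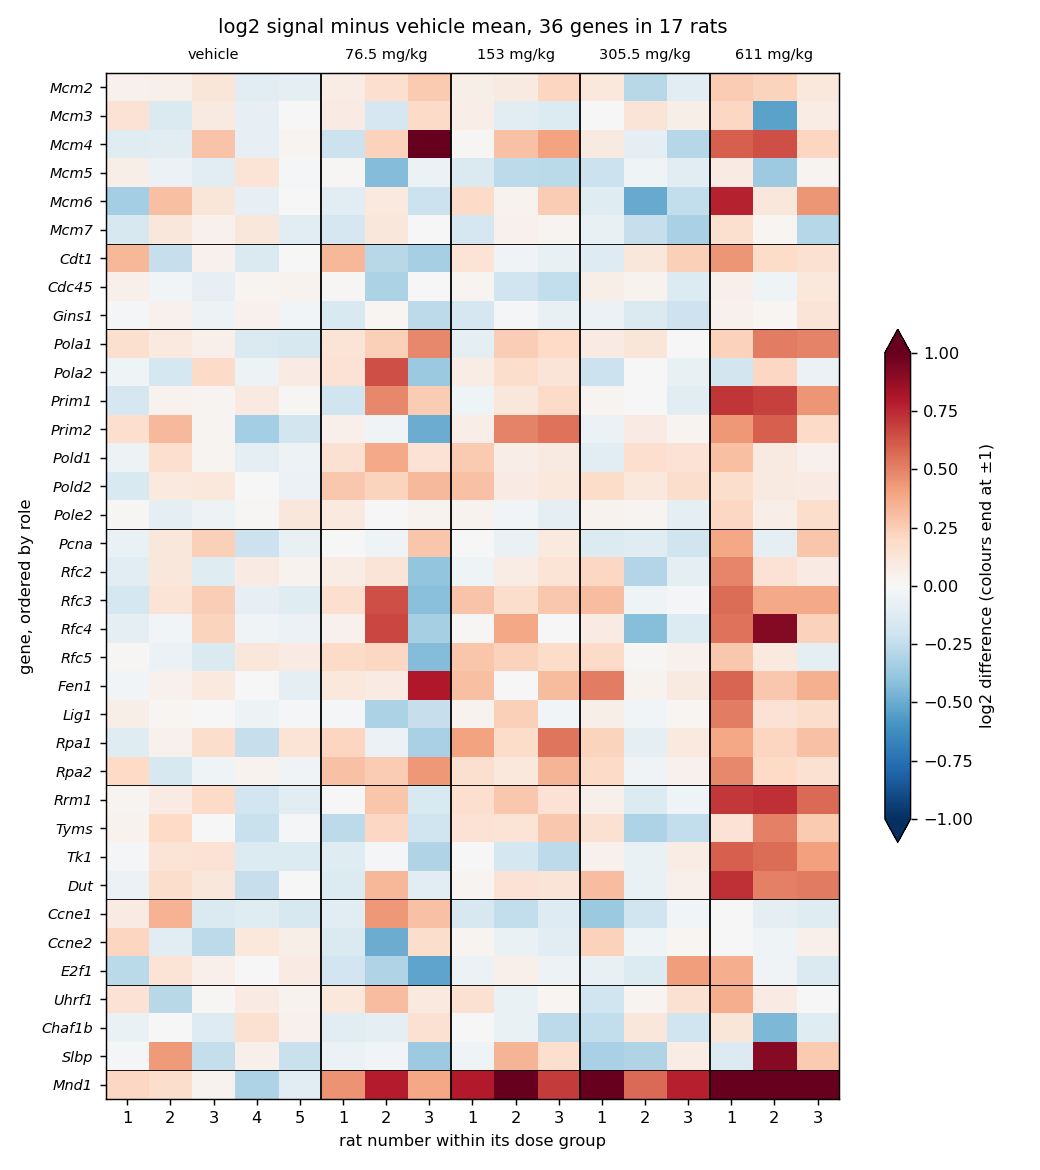
Log2 signal minus the vehicle mean for the 36 measured members (rows, by role) in each of the 17 rats (columns, by dose). Colour gives the difference. The Mnd1 row is above vehicle in every dosed rat, and 22 of 36 members have their highest value in a 611 mg/kg rat, a count not made over all genes.

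The 611 mg/kg rats differed among themselves. Of the 36 members, 22 had their highest value of all 17 rats in this group: 13 in rat 1, 7 in rat 2 and 2 in rat 3. The same count was not made over all genes. The mean over all members minus the vehicle mean was 0.36 in rat 1, 0.26 in rat 2 and 0.21 in rat 3, against -0.05 to 0.05 in the vehicle rats and -0.06 to 0.12 in the rats of the other doses. Over the 6 called members alone it was 0.73, 0.82 and 0.67. The median SD of a member was 0.139 in the vehicle group and 0.179 at 611 mg/kg, where Slbp varied most (SD 0.528). In 611 mg/kg rat 2, Slbp was at 8.04, the highest of all rats, and Mcm3 was at 5.87, below all vehicle rats.

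Arrays of 3 rats stood apart from the rest. On 611 mg/kg rat 2 the 3' minus 5' difference of the GAPDH control probes, a measure of RNA integrity, was 2.89, against 0.928 to 1.56 on the other 16 arrays. The median correlation with the other arrays was 0.985 for that rat, 0.988 and 0.986 for 76.5 mg/kg rats 2 and 3, and 0.991 to 0.993 for the other arrays. Rats 2 and 3 at 76.5 mg/kg held the highest value of 9 members and the lowest of 15, counts not made over all genes. Without these 3 arrays, Mnd1, Rrm1, Tk1, Prim1 and Dut were still called at 611 mg/kg, Pola1 was not (adjusted p = 0.081), and Mcm6 was called (0.60, adjusted p = 0.0294).

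Other genes of the replication pathway, outside the 36 members, were counted from 6 lists. At 611 mg/kg, 1 of 14 licensing and origin firing genes rose, 3 of 20 fork and polymerase genes, 1 of 12 nucleotide supply genes, 2 of 10 chromatin assembly genes and 2 of 12 replication stress and recombination genes. None of these fell. Against the 5.04% of all genes called higher at this dose, the shares were 7.14%, 15%, 8.33%, 20% and 16.7%, each from 1 to 3 genes, and that of the licensing and nucleotide supply lists was near the share of all genes. Topbp1, which is needed for origin firing, rose by 1.10 ± 0.24 (adjusted p = 0.0103). At the fork, the PCNA-binding factor Pclaf rose by 1.24 ± 0.22 (adjusted p = 0.00287), the topoisomerase Top2b by 0.49 and the loader subunit Dscc1 by 0.44. Dscc1 was dim in every rat, at 4.32 to 4.51 in the vehicle rats and 4.67 to 5.15 at 611 mg/kg. The folate enzyme Shmt1 rose by 0.36. Hells, a chromatin remodeller, rose by 1.30 ± 0.17 (adjusted p = 0.000286), and by 1.06 at 153 mg/kg and 1.01 at 305.5 mg/kg. The histone chaperone Asf1a rose by 0.35. The helicase Blm rose by 0.55 and the checkpoint clamp subunit Rad1 by 0.41. Of 5 histone and histone processing genes, H2az1 rose by 0.48 and Lsm11 fell by 0.55.

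Regulators of the step from G1 to S gave 3 rises (12.5%) and 1 fall among 24 at 611 mg/kg, where 5.04% of all genes were called higher and 2.42% lower. Cdkn1a, which encodes the CDK inhibitor p21, fell by 2.52 (adjusted p = 0.000696), and it also fell by 1.86 at 76.5 mg/kg (adjusted p = 0.0384), fell by 2.56 at 153 mg/kg and fell by 2.70 at 305.5 mg/kg. The CDK inhibitor genes Cdkn2c and Cdkn1b rose by 0.63 and 0.32, and the retinoblastoma relative Rbl1 by 0.55. Rbl1 was at 5.23 to 6.06 in the vehicle rats, about the dim limit of 6. The fall of Cdkn1a at 76.5 mg/kg was not seen in every rat. Cdkn1a was at 8.64 and 8.21 in 76.5 mg/kg rats 1 and 2. In 76.5 mg/kg rat 3 it was at 10.49, inside the vehicle range of 10.16 to 11.49. The arrays of 76.5 mg/kg rats 2 and 3 are among those that stood apart. At the higher doses every rat was below the vehicle range, at 8.06 to 8.70. Among mitosis markers, 15 of 19 rose at 611 mg/kg (78.9%) and 0 fell, with a median difference of 0.996. Mki67, a marker of cycling cells, rose by 1.89, cyclin A2 (Ccna2) by 1.83, the spindle checkpoint kinase Bub1 by 1.46 and Birc5 by 1.04. In the vehicle rats Mki67 (5.03 to 5.79), Ccna2 (4.13 to 5.48) and Bub1 (4.24 to 5.01) were dim, while Birc5 was at 6.38 to 7.10. The mean level of the mitosis list was 5.66 to 6.37 in the vehicle rats. The mean of the 19 minus the vehicle mean was 0.72 to 1.53 in the 611 mg/kg rats and -0.39 to 0.32 in the vehicle rats. The lists were not compared with each other by a test.

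**Figure D5:**
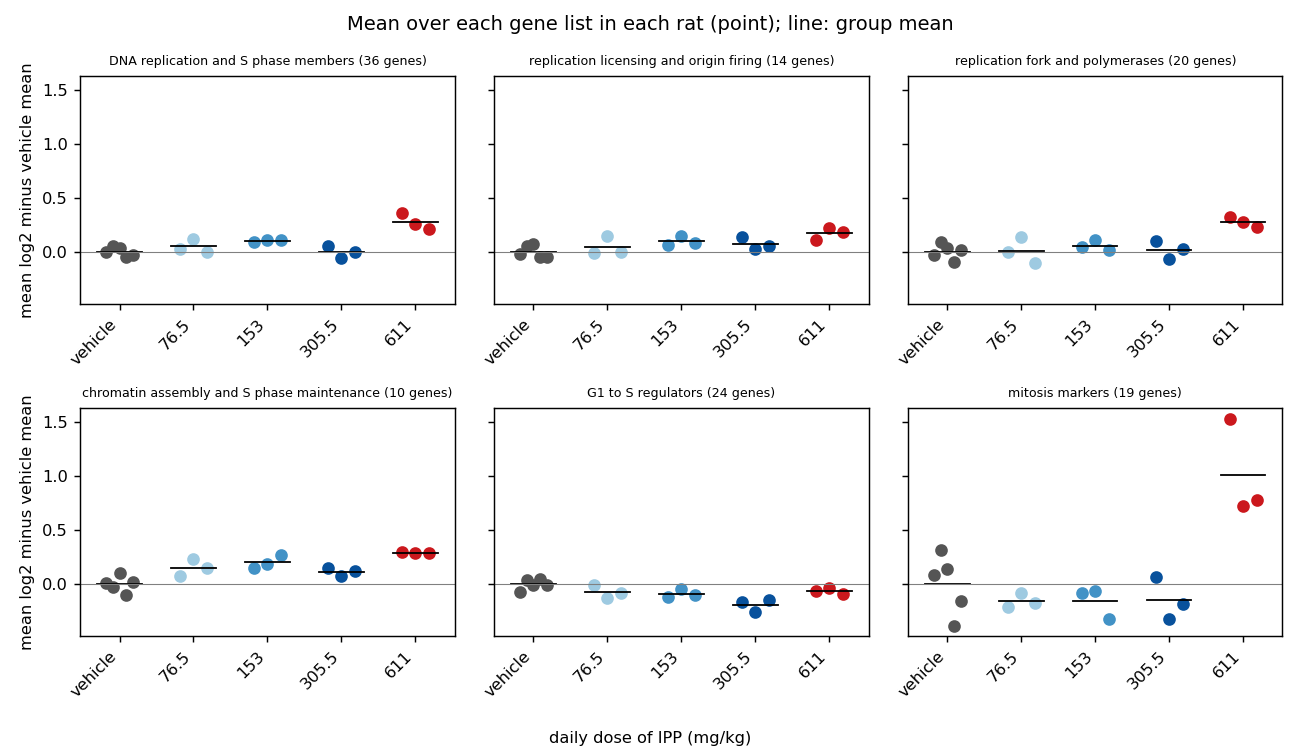
Mean log2 difference from the vehicle mean over the genes of each list, for each of the 17 rats by daily dose in mg/kg. Points are rats and lines are group means. In the mitosis marker panel the 611 mg/kg rats lie between 0.72 and 1.53, above all vehicle rats.

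Markers of other liver cells moved at the same dose. At 611 mg/kg, 0 of 8 hepatocyte, 0 of 8 macrophage, 0 of 8 lymphocyte and 0 of 4 neutrophil markers were called by limma. Of all 14217 genes, 5.04% were called higher and 2.42% lower at this dose. Without adjustment, 0 hepatocyte and 0 neutrophil markers had a p under 0.05. At the same threshold 4 of 8 macrophage and 4 of 8 lymphocyte markers were lower, against 9.66% of all genes. Endothelial markers fell in 5 of 8 (Pecam1, Stab1, Stab2, Lyve1 and Kdr), and the mean level over the list was 8.27 to 8.43 against 8.71 to 8.96 in the vehicle rats. It was also low at 305.5 mg/kg, at 8.26 to 8.52. Stellate cell and fibroblast markers fell in 2 of 10 (Pdgfrb and Acta2), with 7.23 to 7.45 against 7.62 to 7.97 in the vehicle rats. Red cell markers fell in 2 of 5 (Hbb by 1.63 and Alas2 by 1.34), with 7.07 to 7.49 against 8.003 to 8.10 in the vehicle rats. Of 5 cholangiocyte markers, Epcam rose and Krt7 fell, the latter dim at 5.22 to 5.58 in the vehicle rats. The mean over the lymphocyte markers was 5.74 to 5.82, under the 5.93 to 5.98 of the vehicle rats and near background in both. The part of these cells in the differences of the members was not tested.

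The promoter letters were set beside the differences at 611 mg/kg. The 15 members with E2F letters in their windows had a median difference of 0.26, from -0.09 to 0.44, and 1 call (Pola1). The 18 with a window but without the letters had a median of 0.27, from -0.15 to 1.65, and 5 calls. This is a description of the windows read here, and no test was made.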

How the data were processed

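The authors deposited 1 table of log2 expression values, made with RMA per the submitters' processing notes, with software and version not given in the sources used here. It held 31099 probe sets, of which 57 were controls, 20826 carried 1 symbol, 436 several and 9780 none in the platform annotation of 2016. All 17 columns matched a label. For each of 14217 genes the brightest probe set by mean signal was used, with no filter on signal. The groups were fitted in limma 3.58.1 (R 4.3.3) as a factor in a linear model of the 17 arrays (eBayes with trend), with Benjamini-Hochberg adjustment over all genes and a threshold of 0.05 in each of 6 comparisons. The slope was a separate fit on the group's rank. The fit was tested on simulated data with known changes. Replicate numbers name rats and were not used as pairs.

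The members and the gene lists were chosen with earlier results of these data known. Members called in any comparison were to be given in every rat, filled up to 8 by the smallest p at 611 mg/kg. From the other lists, genes were named by smallest p at 611 mg/kg, up to 4 per list, or every called gene if a list had 5 or fewer. Motifs were searched with Python 3.11.15. Signal files were not analysed here.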

Additional observations from a re-analysis of the deposited data

Results flagged for a closer look

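In the vehicle group, Rfc4 was at 7.65 in rat 3 and between 7.33 and 7.40 in the other 4 rats. The gap between rat 3 and its nearest neighbour was 0.791 of the group's whole range, above Dixon's critical value for 5 samples. Chance alone passes that value in about 1 in 20 groups, and of the 36 vehicle groups checked, 1 for each member, only this 1 passed, which is no more than chance gives. Without rat 3 the vehicle mean was 7.37, and the difference at 611 mg/kg was 0.62 (limma, Benjamini-Hochberg adjusted p = 0.0799), in place of 0.56 (adjusted p = 0.0818).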

How the results depend on the processing

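The results were recomputed under 31 alternatives, 17 of which left out 1 rat each. No member changed direction in a called difference, and 0 members were called lower in any comparison under any of them. The rises of Mnd1, Rrm1 and Prim1 at 611 mg/kg were called under all alternatives run. The labels do not say that a replicate number marks a shared litter, batch or day. Deviations of same-numbered rats from their group means correlated from -0.259 to 0.399, with a median of 0.011. For rats of other numbers the range was -0.353 to 0.341, with a median of -0.015. The numbers were not taken as pairs. For the 15 rats numbered 1 to 3, correlations with rats of other groups were averaged by number. In 10 of the 15 the highest of these 3 averages was that of their own number, which is a hint of pairing from the data. With a replicate block, members called higher numbered 0 at 153 mg/kg, 0 at 305.5 mg/kg, 3 at 611 mg/kg and 1 for the slope. The calls then lost were those of Mnd1 at 153 mg/kg (adjusted p = 0.0742) and 305.5 mg/kg (0.0558), and of Pola1 (0.164), Tk1 (0.0579) and Dut (0.0726) at 611 mg/kg, besides the slopes of Rrm1 (0.231) and Dut (0.148). Median centring moved the members' median to 0.057 at 153 mg/kg, 0.20 at 611 mg/kg and 0.16 between 305.5 and 611 mg/kg. Array weights gave 3 members higher at 76.5 mg/kg and 7 between 305.5 and 611 mg/kg. Over all genes they raised the calls from 20 to 363 and from 41 to 259 higher. With the GAPDH difference as a covariate the members called higher in these comparisons numbered 1 and 1. Fitting only the groups compared gave 10 at 611 mg/kg and 0 between 305.5 and 611 mg/kg, where omission of the dimmest 40% of genes gave 1 and a threshold of 0.01 gave 0. For the slope, a threshold of 0.01 gave 1, the dose in mg/kg gave 5, and omission of the 611 mg/kg group gave 1 and a median of -0.0056. Leaving out each rat gave 0 to 1 members higher at 153 mg/kg, 0 to 1 at 305.5 mg/kg, 5 to 10 at 611 mg/kg (10 without 76.5 mg/kg rat 3), 0 to 4 between 305.5 and 611 mg/kg, and 1 to 3 for the slope. The members' median then ran from -0.012 to 0.063 at 76.5 mg/kg, 0.068 to 0.12 at 153 mg/kg, 0.16 to 0.31 at 611 mg/kg and 0.17 to 0.29 between 305.5 and 611 mg/kg. Over all genes, the alternatives gave 204 to 1206 called higher at 611 mg/kg, against 716. The causes of these shifts were not tested. Dim members such as Ccne2, Uhrf1, Cdt1 and Pole2 are near background, where a change can be understated.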
